A study of Homo sapiens with 10 samples.

Results

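The transcriptome of 786-O cells was compared after ZHX2 knockdown with both short hairpin RNAs and after expression of a scrambled hairpin. The comparison used 6 of the 10 arrays of the series, chosen by their titles, with 2 for the scrambled control, 2 for ZHX2 hairpin 44 and 2 for ZHX2 hairpin 45, and the hairpins were given equal weight. 786-O is an established human clear-cell renal carcinoma line without functional VHL, so every group shared that loss. All cells were infected with lentivirus and selected with puromycin at 2 ug/ml, and total RNA was hybridised to Affymetrix arrays. The 4 arrays of a p65 knockdown were not used. All values come from a single line, and the labels do not say whether the replicates of a group were separate cultures. The p-values therefore measure only the spread between these arrays, which may be technical. The labels do not give the hairpin sequences, the time between infection and harvest, or whether cells were pools or clones.

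ZHX2 encodes a nuclear protein with zinc fingers and homeodomains. It is a substrate of the VHL ubiquitin ligase and accumulates in clear-cell carcinomas that lack VHL, where it has been linked to NF-kB target genes. NF-kB drives chemokine, cytokine and adhesion genes, while interferon-induced genes are driven mainly by interferon receptor signalling. Tubule genes such as cadherin 6 and the solute carriers mark the epithelium from which these tumours arise. In bulk RNA, fewer cells that express a gene and less of its RNA per cell cannot be told apart.

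ZHX2 itself, the target, had signals of 10.58 and 10.43 in scrambled cells, 9.35 and 9.38 under hairpin 44, and 8.93 and 9.03 under hairpin 45 (log2 scale, as for all signals and changes here). All 4 knockdown arrays lay below both scrambled arrays. The mean of both hairpins was lower by a log2 change of -1.33 (SE 0.0746, limma adjusted p = 0.00105), or 2.52-fold. The hairpins differed by -0.39, which did not pass the test (adjusted p = 0.152). Of the 8 measured protein-coding genes nearest to ZHX2 on chromosome 8, 4 were called higher and 1 lower at a limma adjusted p under 0.05, where 11.9% of all genes were called higher and 6.4% lower. HAS2, a hyaluronan synthase and the nearest of them on one side, had a change of 0.82 (SE 0.0675, limma adjusted p = 0.0023), and DERL1, the nearest on the other, one of 0.28 (SE 0.0613, limma adjusted p = 0.0283). HAS2 and COL14A1 were the 2 calls that also passed with each array left out and after rescaling, while DERL1 did not.

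Each array gave 53617 signals, and 24462 probe sets carried a single gene name, for 22424 genes. The array medians lay between 6.15 and 6.22. Pearson's r between the replicates of a group, across genes, which are no independent points, was 0.993 to 0.995. No detection call was used, so no gene was called absent, and precision is limited by the number of arrays.

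Of the 22424 genes, 4098 (18.3%) passed limma's test after Benjamini-Hochberg adjustment, with a threshold of 0.05, and are termed called. A total of 2663 (11.9%) were higher and 1435 (6.4%) were lower after knockdown. These shares are the background for every list count below. On every array the groups were separated for 4065 of the called genes. Over all genes, called or not, 4902 (21.9%) had all 4 knockdown arrays above both scrambled arrays and 3684 (16.4%) had all 4 below. The change was small for most called genes: 62 rose and 121 fell at least 2-fold, and 2 rose and 13 fell at least 4-fold. Falls were thus fewer than rises overall but more frequent among large changes.

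The number of calls depended on the arrays used. It was 3338 without scrambled replicate 1 and 1788 without scrambled replicate 2. It was 2255 and 2142 without hairpin 44 replicate 1 and 2, and 2167 and 2066 without hairpin 45 replicate 1 and 2. A call is termed held below if it also passed, in the same direction, with each of the 6 arrays left out in turn, after centring each array on its median and after quantile normalization. A total of 1410 calls (6.29%) were held, 865 higher (3.86%) and 545 lower (2.43%). Genes named as risen or fallen were held unless said otherwise.

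Brighter genes were shifted upward as a class. Genes were placed in 4 bins of 5606 by mean signal. In the brightest bin, 29.7% were called higher and 9.04% lower, with a median log2 change of 0.13. In the dimmest bin 1.21% were called higher and 2.75% lower, with a median of -0.05. The median of the brightest bin was 0.03 after quantile normalization, under which 53.2% of calls were rises, against 64.98% in the deposited values and 73.0% after median centring. The spread of signals on an array, as the interquartile range, was 2.80 to 2.89 on the scrambled arrays and 2.88 to 2.94 on the knockdown arrays. The part of this shift in the lists of bright genes was not tested. Values after quantile normalization are given beside most of the lists that rose.

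**Figure D1:**
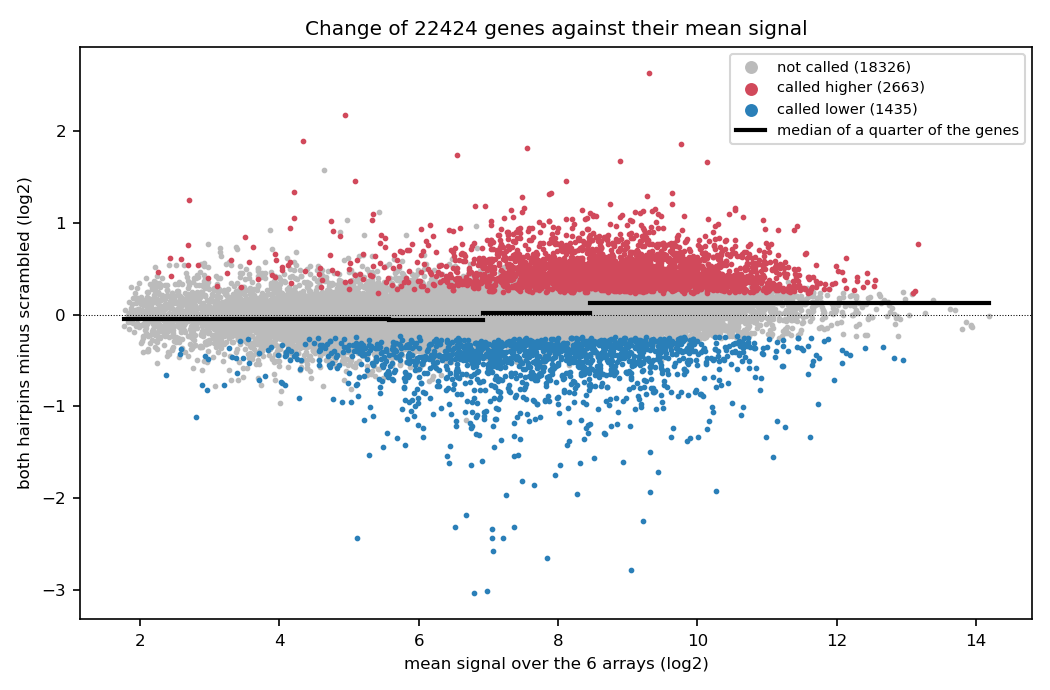
Change after ZHX2 knockdown (vertical axis, log2, both hairpins minus scrambled) against the mean signal over the 6 arrays (horizontal axis, log2), with 1 point per gene; the black lines are medians of 4 equal bins of genes by signal. The median lies at 0.13 in the brightest bin and below 0 in the 2 dimmest bins, and the largest falls reach -3.04.

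The 20 largest falls and 20 largest rises described here were taken only from called genes whose groups did not overlap, so their separation is part of the choice. MMP7, the metalloproteinase matrilysin, had signals of 8.91 and 8.72 in scrambled cells, 6.23 and 6.34 under hairpin 44, and 5.51 and 5.04 under hairpin 45. It fell 8.2-fold, a log2 change of -3.04 (SE 0.144, limma adjusted p = 0.000856), and every knockdown array lay more than 2 log2 units below both scrambled arrays. The collagenase gene MMP13 went from 9.10 and 8.88 to 6.55 and 6.65 under hairpin 44 and 5.22 and 5.46 under hairpin 45. The tubular potassium channel gene KCNJ16 went from 10.94 and 10.88 to 8.75 and 8.90 under hairpin 44 and 7.28 and 7.56 under hairpin 45. In both of these genes the arrays of hairpin 45 lay well below those of hairpin 44. PLXDC2 and ENPP3, the latter an ectonucleotidase of the cell surface, followed and fell by 2.66 and 2.58.

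Among the falls ranked after these, PDZK1 encodes a scaffold protein of the proximal tubule brush border and had signals of 8.73 and 8.49 in scrambled cells, 7.15 and 7.03 under hairpin 44, and 5.32 and 5.58 under hairpin 45. CFI, the protease that inactivates complement C3b, had signals of 8.29 and 7.85 in scrambled cells, 5.93 and 5.66 under hairpin 44, and 5.63 and 5.79 under hairpin 45. Both fell by similar amounts (-2.34 and -2.32), and the hairpins differed by -1.64 in PDZK1 (limma adjusted p = 0.0206) and by -0.09 in CFI (adjusted p = 0.859). The lipid transporter gene ABCA12 fell by 2.31 (SE 0.0762, limma adjusted p = 0.000501) and the long noncoding RNA LINC02532 by 2.19 (SE 0.149, limma adjusted p = 0.00171). ITGB6 fell by 1.97, the kinesin gene KIF12 by 1.95, the retinaldehyde dehydrogenase gene ALDH1A1 by 1.93, CDH6 by 1.92, C3 by 1.86, KMO by 1.81 and LRRC37A3 by 1.75.

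**Figure D2:**
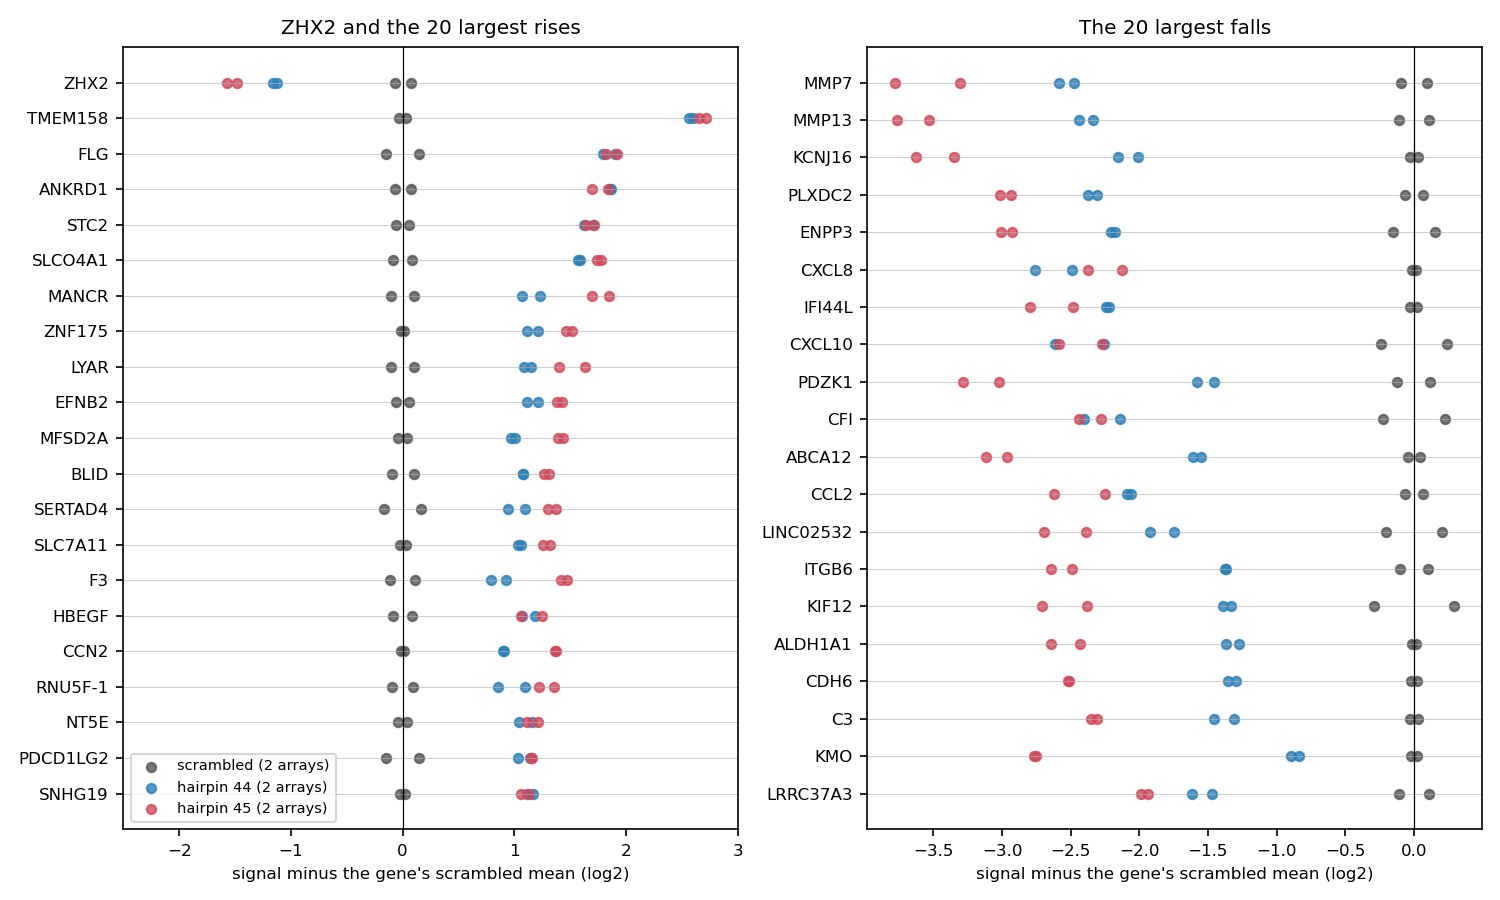
Signals of ZHX2, of the 20 largest rises and of the 20 largest falls (microRNA, small nucleolar RNA, pseudogene, LOC and open reading frame symbols left out) as the difference from each gene's scrambled mean (horizontal axis, log2), with 1 point per array and colours for the scrambled hairpin, hairpin 44 and hairpin 45. Genes were chosen without overlap between the groups. In PDZK1, ABCA12, KMO and several other falls the hairpin 45 arrays lie farther from 0 than the hairpin 44 arrays.

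The promoter of MMP7 is shown because this gene had the largest fall. In this and the other promoters, taken from RefSeq (GRCh38.p14), the window runs from 250 bases before the start of the gene to 50 after it, and capitals mark matches to any of 8 motifs searched on both strands. A missing match says only that those letters are not in the window. The MMP7 window, chr11:102530698-102530997 on the minus strand, held 1 match to the AP-1 motif TGANTCA, from -67 to -61 relative to the start.
MMP7: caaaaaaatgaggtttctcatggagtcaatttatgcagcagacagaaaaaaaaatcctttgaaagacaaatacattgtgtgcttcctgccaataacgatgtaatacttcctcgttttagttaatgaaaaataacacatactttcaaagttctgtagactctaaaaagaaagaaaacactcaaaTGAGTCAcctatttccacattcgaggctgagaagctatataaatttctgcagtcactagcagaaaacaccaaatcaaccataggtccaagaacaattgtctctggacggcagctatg
The same motif was found in 6.2% of the windows of all measured genes.

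Genes of NF-kB-linked inflammation fell in part. Of 19 chemokine genes, 4 were called lower and 0 higher, with a list median of -0.10 against -0.0042 over all genes. Of these falls, 3 were held. CCL2, which attracts monocytes, had signals of 10.79 and 10.66 in scrambled cells, 8.63 and 8.66 under hairpin 44, and 8.47 and 8.10 under hairpin 45, and fell 4.77-fold (log2 change -2.25, SE 0.115, limma adjusted p = 0.00094). CXCL8, the neutrophil chemokine, had signals of 8.82 and 8.85 in scrambled cells, 6.34 and 6.07 under hairpin 44, and 6.46 and 6.71 under hairpin 45, and fell 5.42-fold (log2 change -2.44, SE 0.111, limma adjusted p = 0.000734). In both, the distance between the groups was several times that between replicates. CXCL10, an interferon-inducible chemokine, had signals of 6.97 and 6.49 in scrambled cells, 4.12 and 4.47 under hairpin 44, and 4.14 and 4.46 under hairpin 45, and fell 5.39-fold (log2 change -2.43, SE 0.18, limma adjusted p = 0.00191). Other chemokines stood elsewhere: CXCL2 and CXCL5, neighbours of CXCL8 singled out after their values were seen, had changes of -0.04 (adjusted p = 0.77) and 0.02 (adjusted p = 0.847).

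The CXCL8 promoter is shown as that of the chemokine with the largest fall. Its window, chr4:73740319-73740618 on the plus strand, held 1 AP-1 match, from -137 to -131 relative to the start, and no match to the NF-kB consensus as searched. That consensus had to open with GGG on either strand, so NF-kB sites without these letters were not counted. The missing match does not mean that the window lacks an NF-kB site.
CXCL8: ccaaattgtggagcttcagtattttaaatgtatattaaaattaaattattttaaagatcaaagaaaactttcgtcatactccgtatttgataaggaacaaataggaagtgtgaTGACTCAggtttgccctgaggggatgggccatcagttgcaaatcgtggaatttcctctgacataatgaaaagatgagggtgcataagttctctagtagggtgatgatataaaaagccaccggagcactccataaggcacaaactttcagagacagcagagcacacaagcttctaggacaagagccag
Of the 15 chemokine windows, 8 held an NF-kB consensus match (53.3%), against 12.3% of the windows of all measured genes. This share counts every chemokine window, whether or not the gene changed. Among all genes called lower it was 13.8%, and among those not called 12.4%.

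Some genes of the NF-kB pathway itself also changed. Of 11 NF-kB subunits and IkB proteins, 2 were called higher and 3 lower, with a median of -0.04. Over all genes 11.9% were called higher and 6.4% lower. RELA, which encodes p65, was called higher at 0.44 (SE 0.0689, limma adjusted p = 0.0112), but this call was not held. The other subunit genes NFKB1, NFKB2, REL and RELB were not called. The IkB-family gene NFKBIZ had signals of 10.91 and 10.89 in scrambled cells, 10.27 and 10.28 under hairpin 44, and 8.78 and 8.92 under hairpin 45. Its hairpins differed by -1.43 (limma adjusted p = 0.00812), although all knockdown arrays were below the scrambled ones. BCL3, another IkB-family member, fell by 0.73 (SE 0.0633, limma adjusted p = 0.00256), and TNFAIP3, the ubiquitin-editing feedback inhibitor A20, fell by 0.98 (SE 0.0672, limma adjusted p = 0.00174). The interleukin 1 receptor gene IL1R1 fell by 1.22 and the kinase gene IKBKE by 0.54. In the other direction, CHUK, which encodes the kinase IKK-alpha, rose by 0.78 (SE 0.0764, limma adjusted p = 0.00333), and TNFRSF11A, the receptor RANK, rose by 0.68. Of 30 receptors, adaptors and kinases, 4 were called higher and 4 lower, against 11.9% and 6.4% of all genes, so the share of rises was near that of all genes. The falls in this list numbered 2 to 3 with 1 array left out, fewest without scrambled replicate 1, hairpin 44 replicate 2 or hairpin 45 replicate 2, and 8 after quantile normalization.

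Of 12 adhesion and acute-phase genes, 6 were called lower and 1 higher, with a median of -0.33. Held falls were in VCAM1, the vascular adhesion molecule, by 1.57 (SE 0.0856, limma adjusted p = 0.000974), CP, which encodes the copper oxidase ceruloplasmin, by 1.24, SAA1, an acute-phase apolipoprotein, by 1.01, and TNFAIP6, a hyaluronan-binding protein, by 0.81. The TNFAIP6 fall lay with hairpin 45 alone, since its signals were 7.84 and 7.81 in scrambled cells, 7.96 and 7.91 under hairpin 44, and 6.20 and 5.999 under hairpin 45. CD44, the hyaluronan receptor, was the exception in the list and rose from 9.14 in scrambled cells to 10.04 and 9.94, a change of 0.84 (SE 0.0608, limma adjusted p = 0.00186).

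Many interferon-induced genes fell. Of 37 interferon-induced effectors, 21 were called lower and 1 higher, with a median of -0.39. The falls numbered 14 to 17 with 1 array left out, fewest without scrambled replicate 1 or hairpin 44 replicate 1, and 13 were held. The median over the list was below 0 on all 4 knockdown arrays, between -0.47 and -0.33. IFI44L, an interferon-induced protein of the IFI44 family, had signals of 8.70 and 8.65 in scrambled cells, 6.42 and 6.45 under hairpin 44, and 6.19 and 5.88 under hairpin 45, and fell 5.41-fold (log2 change -2.43, SE 0.0994, limma adjusted p = 0.00068). The guanylate-binding protein gene GBP2 fell by 1.11 (SE 0.163, limma adjusted p = 0.00941) and the antiviral gene SAMD9L by 1.06 (SE 0.0713, limma adjusted p = 0.00165). The 1 called rise, GBP3 at 0.27, was not held (adjusted p up to 0.133 with 1 array left out).

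Of 15 nucleic acid sensors, 8 were called lower, 4 to 6 with 1 array left out, fewest without hairpin 45 replicate 2, and 1 higher. OAS1, a synthetase activated by double-stranded RNA, had signals of 7.73 and 7.74 in scrambled cells, 6.59 and 6.49 under hairpin 44, and 6.40 and 6.22 under hairpin 45. Its paralogue OAS2 fell by 0.96 (SE 0.108, limma adjusted p = 0.00459), and RIGI, the cytosolic RNA helicase that starts interferon signalling, fell by 0.92 (SE 0.065, limma adjusted p = 0.00184). The DNA sensor gene CGAS moved the other way, from 7.88 and 7.52 to 8.32 and 8.40 under hairpin 44 and 8.49 and 8.49 under hairpin 45, a rise of 0.73 (SE 0.111, limma adjusted p = 0.0103). Of 19 interferon receptors, JAKs, STATs and IRFs, 4 were called lower, 0 higher and 15 not called, with a median of -0.07. Over all genes 6.4% were called lower. The 2 held falls of that list were in IRF9 and JAK1. IRF9, a transcription factor of the interferon response, fell by 0.76 (SE 0.0752, limma adjusted p = 0.00343) and the kinase gene JAK1 by 0.40 (SE 0.0654, limma adjusted p = 0.0121). Of 19 antigen presentation genes, 3 were called lower and 1 higher, and none of these calls was held. Among them B2M, the MHC class I light chain, had a change of -0.36 (adjusted p = 0.0195, up to 0.0875 with 1 array left out).

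The IFI44L promoter is shown as that of the interferon-induced effector with the largest fall. Its window, chr1:78620198-78620497 on the plus strand, held the interferon response core GAAANNGAA at 2 positions, from -164 to -156 and from -73 to -65 relative to the start.
IFI44L: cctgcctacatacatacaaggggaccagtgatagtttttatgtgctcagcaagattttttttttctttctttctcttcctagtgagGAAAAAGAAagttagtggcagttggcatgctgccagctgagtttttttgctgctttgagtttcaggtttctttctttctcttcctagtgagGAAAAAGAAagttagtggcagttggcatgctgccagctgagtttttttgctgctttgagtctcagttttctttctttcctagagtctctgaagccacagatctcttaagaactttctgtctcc
The core was found in 24 of 32 windows of the effector list (75%), against 6.98% of all measured genes, 7.9% of genes called lower and 6.75% of genes called higher. The effector list is thus rich in the core, while the genes called lower as a whole hold it about as often as all genes.

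Complement and kynurenine genes fell in part. Of 13 complement genes, 4 were called lower, 2 to 3 with 1 array left out, fewest without scrambled replicate 2, and 1 higher, and the held falls were CFI and C3. C3, the central complement component, had signals of 8.92 and 8.87 in scrambled cells, 7.44 and 7.59 under hairpin 44, and 6.55 and 6.58 under hairpin 45, and the hairpins differed by -0.95 (limma adjusted p = 0.0208). Of 10 measured enzymes of the kynurenine pathway, which degrades tryptophan, 3 were called lower, and all 3 falls were held. KMO, kynurenine 3-monooxygenase, had signals of 8.67 and 8.71 in scrambled cells, 7.86 and 7.79 under hairpin 44, and 5.94 and 5.92 under hairpin 45. ACMSD, which diverts the pathway from NAD synthesis, fell by 1.34 (SE 0.0903, limma adjusted p = 0.00168), and QPRT, which makes the NAD precursor nicotinic acid mononucleotide, fell by 1.07 (SE 0.076, limma adjusted p = 0.00186). KYAT1, the 1 called rise, at 0.35, was not held.

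Genes of the extracellular matrix, its proteases and their receptors were split. Of 21 metalloproteinases and inhibitors, 5 were called lower, 3 to 4 with 1 array left out, fewest without scrambled replicate 2, and 1 higher. After MMP7 and MMP13, the gelatinase gene MMP2 fell by 1.00, from 10.92 and 10.83 to 9.75 and 9.88 under hairpin 44 and 9.97 and 9.90 under hairpin 45. In the list of plasminogen activation and tissue factor genes, the called genes rose. F3, which encodes tissue factor, had signals of 8.74 and 8.51 in scrambled cells, 9.41 and 9.55 under hairpin 44, and 10.04 and 10.09 under hairpin 45. PLAUR, the urokinase receptor, rose by 0.81 (SE 0.0626, limma adjusted p = 0.00211) and its ligand PLAU by 0.41 (SE 0.0623, limma adjusted p = 0.0104). These were the 3 calls among 12 genes of that list, and all 3 were held. Of that list 9 members lay in the brightest bin, where 29.7% of genes were called higher and 10.3% held higher. Its median of 0.11 became 0.07 after quantile normalization, with 3 called higher and 1 lower.

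Of 22 collagen genes, 7 were called lower, 3 to 4 with 1 array left out, and 1 higher. The basement membrane chains COL4A1 and COL4A2 fell by 0.58 and 0.55, and COL18A1, the source of endostatin, by 0.63. COL6A3, a chain of microfibrillar collagen VI, rose by 0.70 (SE 0.0788, limma adjusted p = 0.00466). Integrins, the receptors that bind such matrix, were divided evenly, with 3 of 16 called higher and 3 lower, all held. Over all genes 11.9% were called higher and 6.4% lower. ITGB6, whose product pairs with the alpha v chain and activates latent TGF-beta, had signals of 8.67 and 8.46 in scrambled cells, 7.19 and 7.20 under hairpin 44, and 5.92 and 6.08 under hairpin 45. ITGB3 fell by 0.68 and ITGAV, the alpha v chain that pairs with both, by 0.56 (SE 0.0652, limma adjusted p = 0.00513). ITGA2, a collagen receptor chain, rose by 0.60, ITGB8 by 0.51 and ITGA6, a laminin receptor chain, by 0.46. TGFB1 fell by 0.53 (SE 0.0706, limma adjusted p = 0.00692) and BMP1, a procollagen protease, by 0.79 (SE 0.0676, limma adjusted p = 0.00247).

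Guidance cues and their receptors fell more often than they rose. Of 30 semaphorins, plexins, ephrins and their receptors, 11 were called lower and 3 higher, with 9 falls and 3 rises held and a median of -0.21. PLXDC2, a transmembrane protein with a plexin repeat, fell by 2.66 (SE 0.0736, limma adjusted p = 0.000399), and the transmembrane semaphorin gene SEMA6D by 1.14 (SE 0.077, limma adjusted p = 0.00168). SEMA6A had signals of 9.86 and 9.86 in scrambled cells, 9.46 and 9.50 under hairpin 44, and 8.18 and 8.28 under hairpin 45, and most of its fall lay with hairpin 45 (difference between hairpins -1.25, limma adjusted p = 0.00816). The rises were EFNB2, the ligand ephrin-B2, from 6.68 and 6.57 to 7.84 and 7.74 under hairpin 44 and 8.01 and 8.05 under hairpin 45, SEMA7A, the membrane-anchored semaphorin, by 1.09 (SE 0.0645, limma adjusted p = 0.00121), and the receptor gene EPHA2 by 0.65 (SE 0.0617, limma adjusted p = 0.00303).

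Among angiogenic and Notch genes, JAG1, a Notch ligand, had signals of 12.12 and 12.13 in scrambled cells, 10.98 and 10.98 under hairpin 44, and 10.18 and 10.13 under hairpin 45, and fell 2.94-fold (log2 change -1.56, SE 0.0613, limma adjusted p = 0.000631). The growth factor gene PDGFB fell by 0.88. ANGPTL4, a lipase inhibitor also induced by hypoxia, rose by 1.08 (SE 0.0979, limma adjusted p = 0.00279), and THBS1, the antiangiogenic thrombospondin 1, by 0.96 (SE 0.0709, limma adjusted p = 0.00191). Of 24 HIF-responsive genes outside glycolysis, 4 were called higher and 3 lower, against 11.9% and 6.4% of all genes, with a median of 0.000591. VEGFA, the main HIF-driven angiogenic factor, had a change of -0.00255 (adjusted p = 0.982), and EPAS1, which encodes HIF-2alpha, one of 0.01 (adjusted p = 0.943). ENPP3, also in this list, had signals of 8.94 and 8.64 in scrambled cells, 6.62 and 6.58 under hairpin 44, and 5.87 and 5.78 under hairpin 45 (SE 0.0991, limma adjusted p = 0.000631).

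Many renal tubule genes fell, and several differed between the hairpins. Of 14 measured genes of renal epithelial identity, 8 were called lower and 0 higher, with a median of -0.37, and 7 falls were held. Among the held falls is VCAM1, which is also counted in the adhesion and acute-phase list. The median of the renal epithelial list was -0.25 for hairpin 44 and -0.55 for hairpin 45, each against the same scrambled arrays. CDH6, the cadherin of developing and proximal tubule, had signals of 11.53 and 11.57 in scrambled cells, 10.25 and 10.19 under hairpin 44, and 9.04 and 9.03 under hairpin 45. CDH16, the kidney-specific cadherin, fell by 1.11 (SE 0.071, limma adjusted p = 0.00145) and did not differ detectably between hairpins (difference 0.03, adjusted p = 0.896). SLC17A3, a urate and phosphate transporter of the proximal tubule, had signals of 7.46 and 7.40 in scrambled cells, 6.86 and 6.84 under hairpin 44, and 4.91 and 4.97 under hairpin 45. All 3 genes were lower on each knockdown array, but in SLC17A3 the hairpin 44 arrays lay much nearer to the scrambled arrays than those of hairpin 45 did. PAX8, the renal lineage factor, singled out after its values were seen, had signals of 12.35 and 12.32 in scrambled cells, 12.18 and 12.13 under hairpin 44, and 11.74 and 11.75 under hairpin 45, all far above the array medians, and fell by 0.38 (SE 0.0615, limma adjusted p = 0.0117).

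Of 31 potassium channels and renal solute carriers, 6 were called lower and 3 higher, where 6.4% of all genes were called lower and 11.9% higher. KCNJ15, an inward rectifier, fell by 0.94 (SE 0.0942, limma adjusted p = 0.0035), while KCNK3, a background potassium channel, rose by 0.53 (SE 0.0705, limma adjusted p = 0.00692). SLCO4A1, an organic anion transporter, rose 3.18-fold. The channels and carriers thus did not all follow 1 direction, and their share of rises was near that of all genes.

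Genes of cholesterol synthesis and uptake fell in part. Of 24 measured, 10 were called lower and 0 higher, 6 to 8 with 1 array left out, fewest without scrambled replicate 1, hairpin 44 replicate 2 or hairpin 45 replicate 1, with 6 held and a median of -0.24. HMGCS1, the enzyme before HMG-CoA reductase, had signals of 8.73 and 8.69 in scrambled cells, 7.91 and 8.01 under hairpin 44, and 8.02 and 7.98 under hairpin 45. INSIG1, which retains the SREBP complex in the endoplasmic reticulum, fell by 0.69 (SE 0.0636, limma adjusted p = 0.00284) and LSS, lanosterol synthase, by 0.63 (SE 0.0652, limma adjusted p = 0.00365). Genes of fatty acid synthesis and lipid droplets did not share this direction. Of 23 measured, 5 were called higher and 1 lower, against 11.9% and 6.4% of all genes, with a median of -0.0037. The 1 fall was in the desaturase gene SCD, by 0.42 (SE 0.0639, limma adjusted p = 0.00989). It was held, as were 2 of the rises.

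Some regulators of cell death and stress also moved. PMAIP1, the BH3-only protein NOXA, rose from 8.78 and 8.73 to 9.82 and 9.75 under hairpin 44 and 9.84 and 9.92 under hairpin 45, and the growth-arrest gene GADD45A rose by 0.84 (SE 0.085, limma adjusted p = 0.00351). BCL2L11, the BH3-only protein BIM, fell by 0.95 (SE 0.098, limma adjusted p = 0.00366), and the anti-apoptotic BCL2 and the BH3-only BMF fell by 0.84 and 0.70. TP53INP1, a p53-inducible stress protein, fell by 1.23 (SE 0.102, limma adjusted p = 0.0023), and the autophagy gene GABARAPL1 by 1.18 (SE 0.0833, limma adjusted p = 0.00184). Of 22 p53 targets, 3 were called higher and 7 lower, where 11.9% of all genes were called higher and 6.4% lower. The share of rises was thus near that of all genes. The falls numbered 2 to 4 with 1 array left out, fewest without hairpin 44 replicate 2 or hairpin 45 replicate 2, and 2 rises and 2 falls were held. TNFSF10, the death ligand TRAIL, fell by 0.71 (SE 0.0714, limma adjusted p = 0.00351).

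The largest rise was in TMEM158, and FLG, the epidermal protein filaggrin, followed with 1.86 (SE 0.101, limma adjusted p = 0.000974). The long noncoding RNA MANCR rose by 1.46 and the zinc-finger gene ZNF175 by 1.32. TMEM158, a RAS-induced membrane protein, had signals of 7.52 and 7.59 in scrambled cells, 10.15 and 10.12 under hairpin 44, and 10.21 and 10.27 under hairpin 45, and rose 6.21-fold (log2 change 2.63, SE 0.0644, limma adjusted p = 0.000381). Its hairpins differed by 0.11 (adjusted p = 0.561). Of 17 RAS and MAPK feedback genes, 12 were called higher and 0 lower, 5 to 11 with 1 array left out, fewest without scrambled replicate 2, with a median of 0.49. Held rises were in TMEM158, PHLDA1, SPRY2, ETV5 and SPRY4. SPRY2, an inhibitor of receptor tyrosine kinase signalling, had signals of 6.83 and 6.50 in scrambled cells, 7.52 and 7.47 under hairpin 44, and 7.37 and 7.38 under hairpin 45. PHLDA1, a MAPK-induced gene, rose by 0.84 (SE 0.0732, limma adjusted p = 0.00256). Of the EGF family, HBEGF, a ligand of the EGF receptor, rose from 6.64 and 6.47 to 7.74 and 7.63 under hairpin 44 and 7.81 and 7.62 under hairpin 45, and NRG1, a ligand of ERBB3 and ERBB4, rose by 0.61 (SE 0.0656, limma adjusted p = 0.00407). EGFR itself had a change of -0.37 (adjusted p = 0.0182), a call that was not held.

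The TMEM158 promoter is shown as that of the gene with the largest rise. Its window, chr3:45226238-45226537 on the minus strand, held none of the 8 motifs as searched.
TMEM158: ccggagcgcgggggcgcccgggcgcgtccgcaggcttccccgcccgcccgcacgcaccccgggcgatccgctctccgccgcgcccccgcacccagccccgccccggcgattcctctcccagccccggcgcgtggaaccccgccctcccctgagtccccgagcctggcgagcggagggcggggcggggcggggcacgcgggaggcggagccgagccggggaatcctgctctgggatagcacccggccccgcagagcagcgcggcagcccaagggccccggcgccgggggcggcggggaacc
All letters are therefore in lower case.

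Of 19 immediate early factors, 5 were called higher, 3 to 4 with 1 array left out, and 3 lower. FOSL1, the AP-1 subunit FRA1, had signals of 9.97 and 9.91 in scrambled cells, 10.998 and 10.94 under hairpin 44, and 11.05 and 11.03 under hairpin 45. JUN and SRF rose by 0.50 and 0.44, while EGR1, a zinc-finger factor induced by growth signals, fell by 1.29 (SE 0.081, limma adjusted p = 0.00137) and JUNB by 0.72 (SE 0.0725, limma adjusted p = 0.00351). AP-1 genes thus moved in both directions on the same arrays. Of 20 YAP and TEAD genes, 9 were called higher and 1 lower, with 8 rises held and a median of 0.26 (0.17 after quantile normalization). ANKRD1, an ankyrin-repeat protein, rose from 6.27 and 6.42 to 8.20 and 8.20 under hairpin 44 and 8.04 and 8.18 under hairpin 45. CCN1, a matricellular protein, rose by 1.04 (SE 0.0626, limma adjusted p = 0.00124). CCN2, its relative, rose by 1.13 on the brighter of its 2 probe sets. The TEAD motif GGAATG was found in 7 of 15 windows of this list and in 11.9% of all measured genes.

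Other large rises included several surface and metabolic genes. MFSD2A, a lysophospholipid transporter, had signals of 7.90 and 7.98 in scrambled cells, 8.91 and 8.95 under hairpin 44, and 9.38 and 9.33 under hairpin 45. NT5E, the ectoenzyme CD73 that makes adenosine, had signals of 8.50 and 8.42 in scrambled cells, 9.50 and 9.61 under hairpin 44, and 9.67 and 9.57 under hairpin 45. PDCD1LG2, the immune checkpoint ligand PD-L2, had signals of 6.60 and 6.89 in scrambled cells, 7.77 and 7.88 under hairpin 44, and 7.90 and 7.89 under hairpin 45. MFSD2A was highest under hairpin 45, while NT5E and PDCD1LG2 had similar signals under both hairpins. BLID rose by 1.18 (SE 0.0786, limma adjusted p = 0.0016), SERTAD4 by 1.18 (SE 0.11, limma adjusted p = 0.00292) and the U5 spliceosomal RNA gene RNU5F-1 by 1.13 (SE 0.103, limma adjusted p = 0.00279).

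Genes of ribosome production rose almost throughout. Of 34 ribosome biogenesis factors, 33 were called higher and 0 lower, with 25 held and a median of 0.70, which was 0.63 after quantile normalization with 33 called higher. Of these, 24 lay in the brightest bin, where 29.7% were called higher. LYAR, a nucleolar protein, had signals of 7.10 and 6.89 in scrambled cells, 8.08 and 8.14 under hairpin 44, and 8.39 and 8.63 under hairpin 45. WDR3 and NOP16, also nucleolar, rose by 1.08 and 1.04, and UTP15, a part of the small-subunit processome, stood near the list median at 0.72. MYC, the factor known to drive many of these genes, had signals of 8.17 and 8.08 in scrambled cells, 8.96 and 8.90 under hairpin 44, and 9.02 and 9.07 under hairpin 45, and rose 1.81-fold (log2 change 0.86, SE 0.0668, limma adjusted p = 0.00211). Its part in the rises above was not tested. Of 12 genes of the MYC network, 2 were called higher and 2 lower, against 11.9% and 6.4% of all genes, with a median of -0.15. The E-box CACGTG was found in 12 of 27 windows of the ribosome biogenesis list (44.4%), against 8.58% of all measured genes. That share describes the list as chosen and not its change.

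All 11 measured noncoding host genes of small nucleolar RNAs were called higher, 8 to 11 with 1 array left out, fewest without scrambled replicate 2, with 8 held and a median of 0.71 (0.62 after quantile normalization). SNHG1 had signals of 8.75 and 8.66 in scrambled cells, 9.70 and 9.79 under hairpin 44, and 9.77 and 9.95 under hairpin 45. SNHG15 rose by 1.04 (SE 0.0915, limma adjusted p = 0.00267) and GAS5 by 0.82 (SE 0.0641, limma adjusted p = 0.00211). SNHG19, which was not in this list, rose by 1.12 (SE 0.0649, limma adjusted p = 0.00113). Among the 218 genes of small nucleolar RNAs themselves, which guide modification of ribosomal RNA, 58 (26.6%) were called higher and 6 (2.75%) lower, with a median of 0.17. Protein-coding genes were called higher in 14.4% and lower in 6.87%, and long noncoding RNAs in 2.28% and 5.59%.

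Other parts of the protein synthesis machinery rose in smaller steps. Of 19 cytosolic tRNA synthetases, 14 were called higher and 0 lower (8 held, 8 to 14 with 1 array left out, fewest without scrambled replicate 2), with a median of 0.43 and 0.33 after quantile normalization. AARS1, alanyl-tRNA synthetase, had signals of 10.60 and 10.55 in scrambled cells, 11.22 and 11.25 under hairpin 44, and 11.25 and 11.29 under hairpin 45. Of 30 initiation factors, 18 were called higher and 1 lower, and the rises numbered 8 to 15 with 1 array left out, fewest without hairpin 44 replicate 2. The list median was 0.33, and 0.22 after quantile normalization. EIF2S1, the alpha subunit of eIF2, rose by 0.86 (SE 0.0676, limma adjusted p = 0.00211). Of 36 measured cytosolic ribosomal proteins, 26 were called higher, 7 to 16 with 1 array left out, fewest without scrambled replicate 2, and 16 after quantile normalization, where the median went from 0.33 to 0.23. RPL12, a large-subunit protein, rose by 0.95 (SE 0.0783, limma adjusted p = 0.0023), though genes of this family share sequence with many pseudogenes. Of 40 mitochondrial ribosomal proteins, 25 were called higher, 9 to 24 with 1 array left out, fewest without scrambled replicate 2, with MRPL15 at 1.01 as the largest. Their median was 0.35 and 0.28 after quantile normalization.

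Protein folding, degradation and splicing genes moved upward as well. Of 15 chaperonins and heat shock proteins, 11 were called higher (8 held), with a median of 0.46 and 0.35 after quantile normalization. CCT5, a subunit of the CCT chaperonin that folds actin and tubulin, had signals of 9.85 and 9.99 in scrambled cells, 10.52 and 10.54 under hairpin 44, and 10.69 and 10.79 under hairpin 45. HSPH1, a partner of HSP70, rose by 0.67 (SE 0.0617, limma adjusted p = 0.00285). Of 27 proteasome subunits and 36 splicing factors, 17 and 25 were called higher and 0 lower, but only 5 and 5 were held. The rises of the proteasome list numbered 5 to 16 with 1 array left out, fewest without scrambled replicate 2. Those of splicing factors numbered 5 to 16 with 1 array left out, fewest without scrambled replicate 2. These lists had 23 and 30 members in the brightest bin, and their medians of 0.35 and 0.31 became 0.24 and 0.22 after quantile normalization. PSMC4, a proteasome ATPase, rose by 0.59 (SE 0.071, limma adjusted p = 0.0055) and SNRPD1, a core protein of the spliceosomal snRNPs, by 0.86 (SE 0.0837, limma adjusted p = 0.00328).

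**Figure D3:**
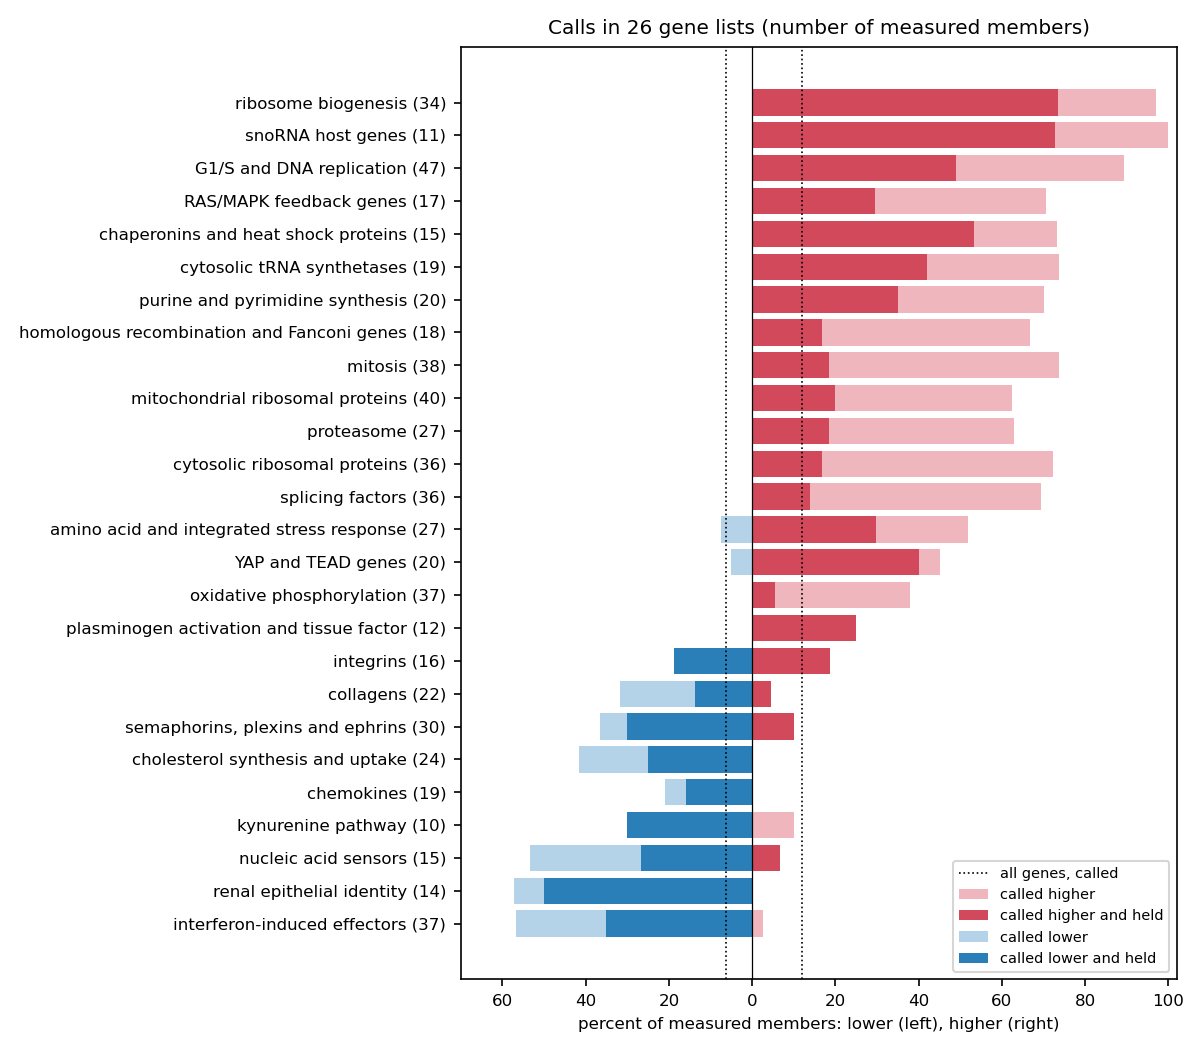
Share of the measured members of 26 gene lists that were called lower (left) or higher (right), in percent, with the held calls in the darker colour; dotted lines mark the shares over all genes, 6.4% lower and 11.9% higher. Ribosome biogenesis stands at the top with 33 of 34 members called higher, and the interferon-induced effectors at the bottom with 21 of 37 called lower.

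Cell cycle genes were called higher in large part. Of 47 genes of G1/S transition and DNA replication, 42 were called higher and 0 lower, 23 to 42 with 1 array left out, fewest without scrambled replicate 2, with 23 held. Of these genes 39 lay in the brightest bin, where 29.7% of all genes were called higher and 10.3% held higher. The median was 0.49, and 0.41 after quantile normalization with 37 called higher. MCM10, which helps to start replication forks, had signals of 8.65 and 8.55 in scrambled cells, 9.43 and 9.53 under hairpin 44, and 9.62 and 9.56 under hairpin 45. CLSPN, the checkpoint adaptor claspin, rose by 0.82 (SE 0.12, limma adjusted p = 0.00921), RFC3, a clamp loader subunit, by 0.80 (SE 0.0732, limma adjusted p = 0.00284), and CDC25A, the phosphatase that activates CDK2, by 0.79 (SE 0.0686, limma adjusted p = 0.00253). CCND1, cyclin D1, rose from 11.05 and 11.09 to 11.52 and 11.48 under hairpin 44 and 11.62 and 11.62 under hairpin 45.

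The MCM10 promoter is shown as that of the replication gene with the largest rise. Its window, chr10:13161308-13161607 on the plus strand, held the palindromic CRE TGACGTCA from -29 to -22 relative to the start, 1 NF-kB consensus match from -150 to -141, and no match to the E2F motif TTTCCCGC.
MCM10: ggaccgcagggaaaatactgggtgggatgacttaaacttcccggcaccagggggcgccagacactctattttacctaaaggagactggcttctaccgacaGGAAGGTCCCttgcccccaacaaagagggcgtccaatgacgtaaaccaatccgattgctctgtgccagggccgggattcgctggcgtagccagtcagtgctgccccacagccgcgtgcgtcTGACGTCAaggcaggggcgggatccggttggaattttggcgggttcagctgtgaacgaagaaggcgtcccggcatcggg
The E2F motif was found in 12 of 41 windows of the replication list (29.3%), against 2.15% of all measured genes.

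Of 38 mitotic genes, 28 were called higher and 0 lower, 7 to 21 with 1 array left out, fewest without scrambled replicate 2. Of these rises 7 were held, and 32 genes of the list lay in the brightest bin. MAD2L1, a spindle checkpoint protein, had signals of 7.46 and 7.29 in scrambled cells, 8.03 and 8.03 under hairpin 44, and 8.22 and 8.39 under hairpin 45, and SPC25, a kinetochore protein, rose by 0.58 (SE 0.068, limma adjusted p = 0.00511). The mitotic list median was 0.35 (0.26 after quantile normalization, with 20 called higher), below that of the replication list. Of 18 genes of homologous recombination and the Fanconi pathway, 12 were called higher, 3 to 11 with 1 array left out, fewest without scrambled replicate 2, with FANCE at 0.81, EXO1 at 0.69 and FANCB at 0.62 held. The median of that list was 0.36 and 0.29 after quantile normalization. Of 13 measured replication-dependent histone genes, whose transcripts lack poly(A) tails, 3 were called higher and none was held. Of 20 genes of purine and pyrimidine synthesis, 14 were called higher and 0 lower, 7 to 14 with 1 array left out, fewest without scrambled replicate 2, with a median of 0.43 and 0.33 after quantile normalization. CTPS1, CTP synthase, had signals of 8.46 and 8.40 in scrambled cells, 9.20 and 9.17 under hairpin 44, and 9.37 and 9.52 under hairpin 45, and MTHFD2, the mitochondrial folate enzyme, rose by 0.86 (SE 0.0624, limma adjusted p = 0.00186).

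**Figure D4:**
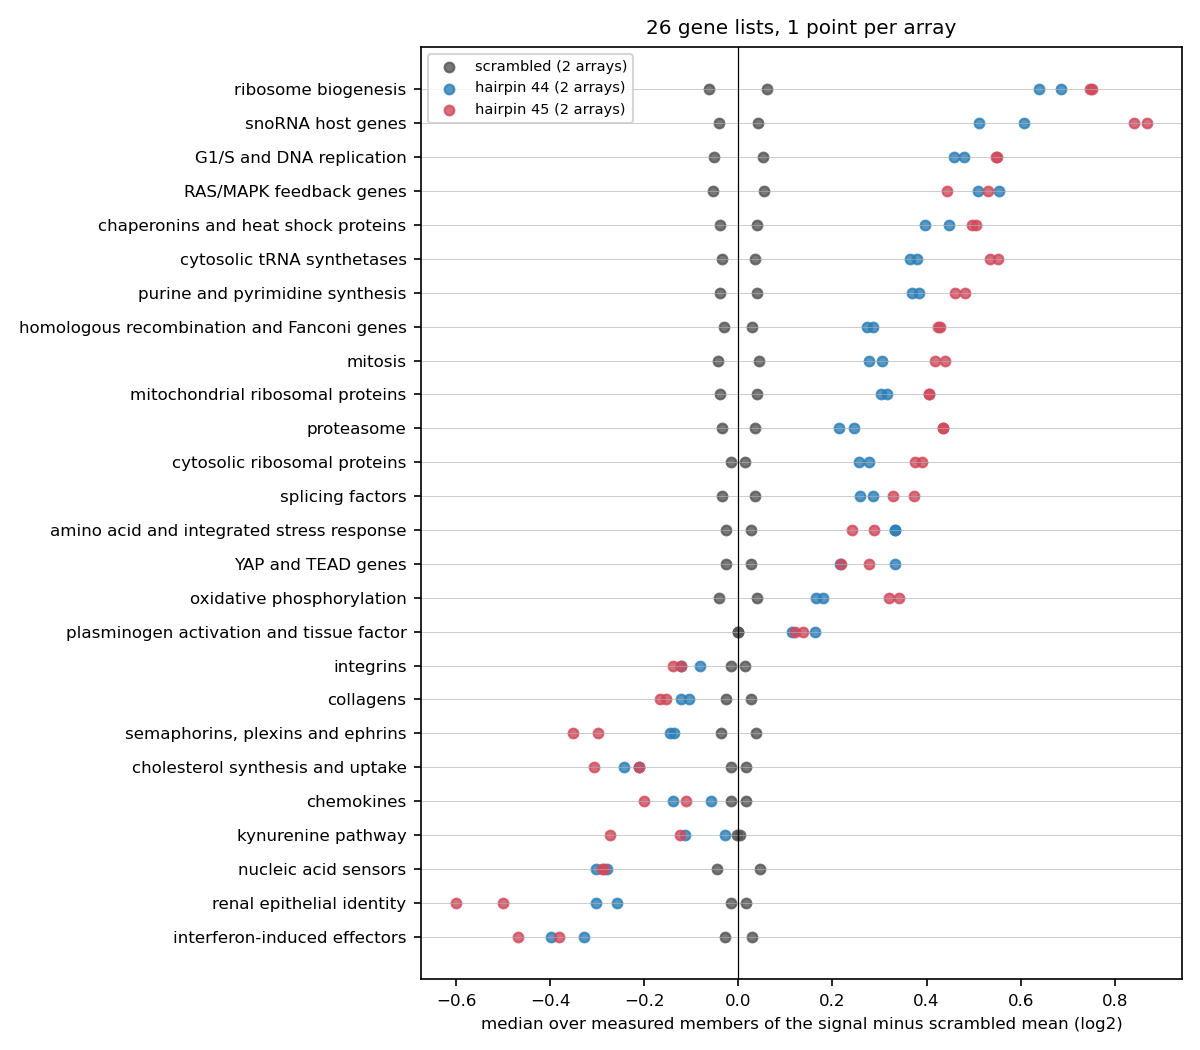
Median over the measured members of 26 gene lists of the signal minus the scrambled mean (horizontal axis, log2), with 1 point per array and colours for the scrambled hairpin, hairpin 44 and hairpin 45. The lists shown were picked from 64 without a set rule. In each of them the 4 knockdown arrays lie on the same side of 0. In some lists not shown, such as the immediate early factors and metalloproteinases, they lie on both sides. The points for renal epithelial identity are about -0.3 with hairpin 44 and -0.5 to -0.6 with hairpin 45.

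Amino acid supply and stress genes rose in part. Of 27 genes of the integrated stress response, 14 were called higher, 8 to 13 with 1 array left out, fewest without scrambled replicate 2, and 2 lower, with 8 rises held and a median of 0.28. Of this list 15 members lay in the brightest bin. After quantile normalization its median was 0.31, with 14 called higher and 4 lower. STC2, a secreted glycoprotein, rose by 1.67 (SE 0.0717, limma adjusted p = 0.000706). SLC7A11, the cystine importer, had signals of 9.79 and 9.73 in scrambled cells, 10.81 and 10.79 under hairpin 44, and 11.08 and 11.02 under hairpin 45. CHAC1, a glutathione-degrading enzyme, rose by 1.02 (SE 0.0711, limma adjusted p = 0.00178). TRIB3, a target of ATF4 singled out after its values were seen, had a change of 0.01 (adjusted p = 0.955). Of 22 NRF2 antioxidant genes, 8 were called higher and 1 lower, with 5 rises held. The rises numbered 5 to 7 with 1 array left out, fewest without scrambled replicate 2. Of this list 17 members lay in the brightest bin, and its median of 0.12 became 0.04 after quantile normalization, with 7 called higher and 3 lower. GCLM, a subunit of the glutathione-making ligase, rose by 0.69 (SE 0.0632, limma adjusted p = 0.00284).

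Genes of energy metabolism were called higher in part, and many of them were bright. Of 37 measured subunits of oxidative phosphorylation, 14 were called higher, 2 to 14 with 1 array left out, fewest without scrambled replicate 2, and NDUFB6 and NDUFS3 of complex I were the held ones, at 0.60 and 0.56. The list median was 0.23 and 0.19 after quantile normalization, where 10 were called higher. Of this list 19 members lay in the brightest bin, where 29.7% of genes were called higher and 10.3% held higher. After quantile normalization 1143 of the 5606 genes in that bin were called higher. Of 23 glycolysis genes, 10 were called higher and 0 lower, 3 to 6 with 1 array left out, fewest without scrambled replicate 2, hairpin 44 replicate 2 or hairpin 45 replicate 2, and 5 higher and 1 lower after quantile normalization. In the glycolysis list 16 members lay in the brightest bin, and 3 rises were held. SLC2A3, a glucose transporter, rose by 0.77 (SE 0.0839, limma adjusted p = 0.00426) and HK2, hexokinase 2, by 0.53 (SE 0.0745, limma adjusted p = 0.00838). In the citrate cycle, IDH3A and IDH3B, subunits of the NAD-dependent isocitrate dehydrogenase, rose by 0.67 and 0.51, while the NADP-dependent IDH2 fell by 0.45 (SE 0.0604, limma adjusted p = 0.00711).

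The hairpins were also compared with each other. Of 22424 genes, 89 (0.397%) were called between hairpin 45 and hairpin 44, 29 higher and 60 lower with hairpin 45, and 71 of them were also called against scrambled. The scrambled arrays enter this comparison only through the pooled variance, and its count fell to between 0 and 4 when 1 array was left out. The count rose to 1468 with an intensity trend in the variance model, 404 without dim genes and 207 with array weights. Against the shared scrambled arrays, the median size of the change over the called genes was 0.38 for hairpin 44 and 0.52 for hairpin 45. TINAG, a tubulointerstitial antigen, had signals of 7.9999 and 8.09 in scrambled cells, 7.54 and 7.56 under hairpin 44, and 5.66 and 5.65 under hairpin 45, a difference of -1.90 between hairpins (limma adjusted p = 0.00204). GLIPR1 had signals of 9.84 and 9.82 in scrambled cells, 9.99 and 10.15 under hairpin 44, and 11.10 and 11.02 under hairpin 45, so its rise of 0.74 in the mean lay with hairpin 45. SERPINB7 likewise had signals of 7.08 and 7.10 in scrambled cells, 7.23 and 7.13 under hairpin 44, and 8.13 and 8.22 under hairpin 45. In both genes the hairpin 44 arrays stood close to the scrambled arrays and the hairpin 45 arrays about 1 log2 unit above them. In TNC, which encodes the matrix protein tenascin C, the hairpins lay on opposite sides of the scrambled arrays: its log2 change was -1.02 for hairpin 44 and 0.41 for hairpin 45.

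Matches to the 8 motifs were counted by call. RefSeq windows were matched by symbol to 15538 of the 22424 genes. The E-box was found in 12.9% of 2133 windows of genes called higher, 7.03% of 1038 called lower and 7.96% of 12367 not called. The E2F motif was found in 3.84%, 1.93% and 1.88%, and the CRE in 3.84%, 2.02% and 2.35%. For AP-1 the shares were 4.5%, 6.07% and 6.5%, for the NF-kB consensus 10.6%, 13.8% and 12.4%, and for TEAD 10.6%, 12.5% and 12.1%. The ATF4-C/EBP motif TGATGCAA was found in under 1% of each group. The windows also differed in composition, with a median of 26 CpG sites in genes called higher, 23 in those called lower and 20 in those not called, and its part in the motif shares was not tested. Over all 27305 RefSeq windows the E-box share was 7.43% and the E2F share 1.66%. A match is a description of the letters in a window and not a site of binding.

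**Figure D5:**
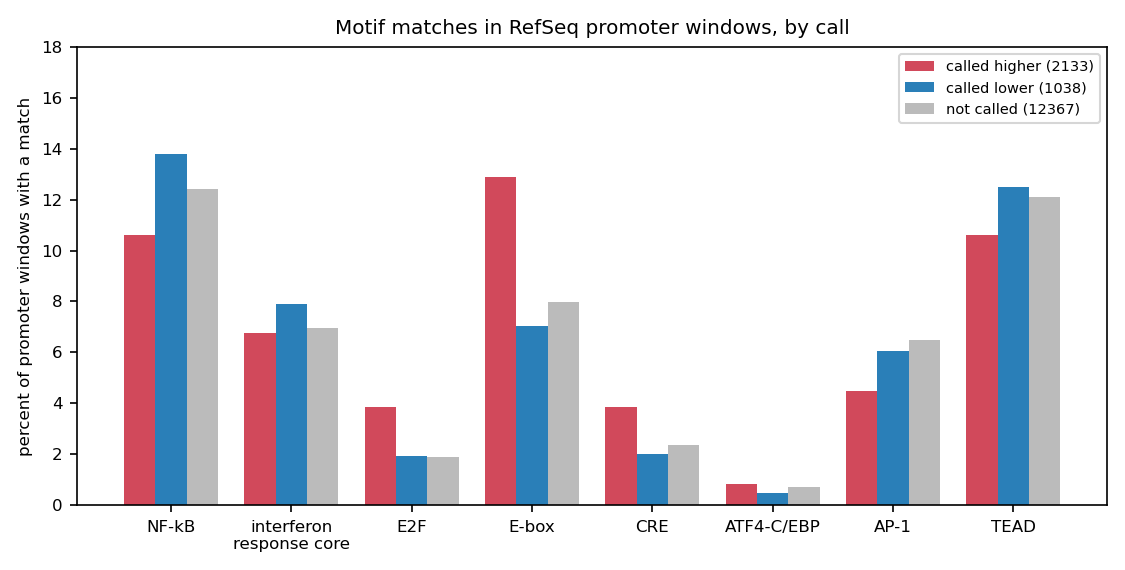
Percent of RefSeq promoter windows (vertical axis) with a match to each of 8 motifs (horizontal axis), for genes called higher, called lower and not called after ZHX2 knockdown. The E-box, E2F and CRE bars are tallest for genes called higher, and the NF-kB consensus bar is tallest for genes called lower at 13.8%.

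Leukocyte and endothelial markers showed few calls, where 11.9% of all genes were called higher and 6.4% lower. In the dimmest bin lay 7 leukocyte and 4 endothelial markers, and in the brightest 1 and 0. Of all genes in the dimmest bin 1.21% were called higher and 2.75% lower. In the fibroblast, neuronal and clear-cell lists 1, 2 and 3 members were called lower, counts too small to set against the share of all genes. Of 18 leukocyte markers, 1 was called lower and 0 higher: CD68, a lysosomal protein also made by many other cells, fell by 0.46 (SE 0.0678, limma adjusted p = 0.00934). Of 12 endothelial markers 0 were called by limma, 0 were higher and 0 lower at an unadjusted p under 0.05, and the list median was -0.06. Of 9 fibroblast and pericyte markers, 1 was called higher and 1 lower, with LUM, the matrix proteoglycan lumican, at -0.95. Of 10 neuronal markers 2 were called lower, NEFL, the neurofilament light chain, at -1.16 and MAP2 at -0.75. Of 11 measured features of clear-cell lines, 3 were called lower, with IGFBP3, an insulin-like growth factor binding protein, at -0.87 and CD70, a TNF-family ligand, at -0.39 held.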

How the data were processed

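Values were log2 signals of Affymetrix arrays deposited by the authors, made with RMA per the submitters' processing notes. The sources used here do not give its software version or settings. RMA corrects background, equalises array distributions and summarises probes, and it compresses large folds. The platform annotation was joined by probe set to that of another platform, and 600 symbols were updated through RefSeq. Of 53617 probe sets, 24462 were so named with 1 gene. Left unnamed were 1851 with several genes and 108 for which the annotations gave different genes. The brightest probe set stood for each of 22424 genes. A linear model with 3 group means was fitted to all genes in limma 3.58.1 (R 4.3.3), with residual df of 3, and both hairpins were averaged with equal weight. Calls used Benjamini-Hochberg adjusted p under 0.05 over all genes. The model was tested on simulated data. Alternatives changed the variance model, normalization, dim-gene filter (40th percentile), probe-set rule, weights, block, fold minimum (1.5) and arrays. Same-numbered arrays did not deviate together (r of replicate differences -0.026, 0.055 and 0.027), so the numbers were not taken as pairs.

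The genes and lists were chosen with earlier results of these data known, and give no independent support. Named genes were ZHX2, the 20 called genes that rose most and the 20 that fell most without overlap between groups (leaving out microRNA, small nucleolar RNA, pseudogene, LOC and open reading frame symbols), for each list the 3 largest called changes per direction and the member nearest the list median, every member of lists of 12 or fewer, and the 6 largest called hairpin differences per direction. A few others were named after their values were seen (HAS2, DERL1, CXCL2, CXCL5, PAX8, TRIB3, ETV5 and SPRY4). Promoter windows came from RefSeq (GRCh38.p14), matched by symbol.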

Additional observations from a re-analysis of the deposited data

Results flagged for a closer look

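In 22 of the named genes the change differed between the hairpins by limma's test of hairpin 45 minus hairpin 44, a comparison whose calls fell to between 0 and 4 over all genes when 1 array was left out. The change against scrambled was larger with hairpin 45 in 18 of them. Among tubule and transport genes the differences were -1.91 for SLC17A3, -1.90 for TINAG, -1.64 for PDZK1, -1.41 for KCNJ16, -1.19 for CDH6 and -1.46 for ABCA12. Among inflammatory and metabolic genes they were -1.89 for KMO, -1.84 for TNFAIP6, -1.43 for NFKBIZ, -1.15 for VCAM1, -0.95 for C3 and -1.21 for ALDH1A1. Among matrix and guidance genes they were -1.26 for MMP13, -1.25 for SEMA6A, -1.19 for ITGB6 and -0.82 for JAG1. In the other direction they were 1.43 for TNC, 1.02 for NSA2, 1 for SERPINB7, 0.99 for GLIPR1, 0.90 for PSMG2 and 0.88 for SF3B6.

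TNC had signals of 9.82 and 9.75 in scrambled cells, 8.80 and 8.73 under hairpin 44, and 10.21 and 10.18 under hairpin 45. NSA2, a factor of large-subunit ribosome assembly, had signals of 9.60 and 9.56 in scrambled cells, 9.01 and 8.73 under hairpin 44, and 9.86 and 9.92 under hairpin 45. PSMG2, a proteasome assembly chaperone, had signals of 10.42 and 10.30 in scrambled cells, 9.85 and 9.87 under hairpin 44, and 10.72 and 10.80 under hairpin 45. SF3B6, a spliceosome subunit, had signals of 9.87 and 9.71 in scrambled cells, 9.19 and 9.26 under hairpin 44, and 10.10 and 10.11 under hairpin 45. In these 4 genes every hairpin 44 array lay below and every hairpin 45 array above both scrambled arrays.

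Probe sets without a single gene name also changed. In a fit of all 53617 probe sets, 1381 of 29155 such probe sets (4.74%) were called, 836 higher and 545 lower.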

How the results depend on the processing

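Of the 270 calls among the named genes, 0 changed direction and 171 stayed past limma's threshold in every alternative in which they were refitted by name. The 1.5-fold minimum and the fit of every probe set are not among these. With 1 array left out the count of calls was 1788 to 3338, of rises 1001 to 2303, of falls 772 to 1035, of calls without overlap 1786 to 3334, and of hairpin differences 0 to 4. The fewest calls came without scrambled replicate 2; the cause was not tested. Hairpin differences numbered 1468 with an intensity trend, 404 without dim genes, where fewer genes were tested, 207 with array weights and 8 over every probe set. Falls numbered 955 with all 4 knockdown arrays as 1 group. With a 1.5-fold minimum tested by limma's treat, 87 genes were called. With the replicate number as a block, 3381 genes were called and the hairpin differences were 11; the arrays share only a number. Quantile normalization gave 2110 rises and 1855 falls, and median centring 3059 and 1130. Centring moved the median of all genes to 0.038 and turned the sign of 10 of 64 list medians, quantile normalization of 3. The arrays give no detection call, so dim genes could not be set apart from background, and 2 arrays per group limit the precision.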
